A study of Sus scrofa with 9 samples.

Results

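The 35 loci described here carry the enzymes of isoprenoid and sterol synthesis in pig blastocysts. A locus was taken as a member where its KEGG annotation in the deposited gene table held the term Terpenoid backbone biosynthesis (17 loci) or Steroid biosynthesis (18 loci), without Carbon metabolism or Lysosome, and where one of its transcripts matched or shared the splice structure of a known transcript. They are 35 of 88800 loci in the table, of which 17065 were annotated in that sense. Another 4 loci held one of both terms and were left out for the second condition, namely TKT, LIPA, ACAT2 and ACAT1. MVD and DHCR7, enzymes of the same route, are not among the members and were not analysed here.

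The series holds total RNA sequencing of porcine blastocysts in 3 groups of 3 samples: embryos that received no siRNA, a control siRNA or an siRNA against INO80, the catalytic subunit of a chromatin remodelling complex. Its title places the study at the morula-to-blastocyst transition and the trophectoderm barrier. Values are FPKM, a fragment count scaled to transcript length and to the mapped fragments of the library, so levels of different genes can be set side by side per length. Libraries used here are 3 from uninjected blastocysts and 3 in columns labelled INO80 siRNA; the control siRNA group and the columns named for a water sham injection were not analysed here. The samples whose siRNA characteristic is INO80-siRNA carry titles that name a water sham, so the labels of that group disagree among themselves. The sources used here state neither embryo age, embryos per library nor the injected dose. Nothing says that the libraries of a group came from separate pools of embryos, so p-values reflect how far these samples scatter, and that scatter may be technical only. The tables give no read counts, and the depth behind each value is therefore not known.

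The mevalonate pathway condenses acetyl-CoA units into isopentenyl diphosphate, and prenyltransferases join these units into farnesyl and longer chains. Farnesyl diphosphate is either attached to proteins, extended for ubiquinone and dolichol, or paired into squalene, which is cyclised to lanosterol and trimmed in several steps to cholesterol. Transcription of most of these enzymes is controlled together by the SREBP factors, which are released when membrane sterol is low.

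INO80 itself was at 0.736, 1.09 and 1.92 FPKM without injection (libraries 1 to 3) and at 0.331, 1.37 and 2.18 FPKM under the INO80 siRNA label. The groups overlapped fully, with a log2 difference of -0.03 (SE 0.56, 95% interval -1.29 to 1.24, limma adjusted p = 0.992). The targeted transcript was thus not detectably lower, and every direction given below compares libraries by their label, not by a measured loss of INO80. The only reference is embryos without injection, so effects of injection or siRNA delivery cannot be told apart from those of the siRNA target. Among markers of the embryo, KRT8 of the trophectoderm list lay between 631 and 2467 FPKM and POU5F1 of the epiblast list between 17.6 and 91.4 FPKM. SOX2 was listed at 0 in 4 of the 6 libraries. Of the cumulus and granulosa cell markers, 8 of 13 had a locus; their summed level was 19.5 to 95.2 FPKM in uninjected and 23.7 to 26.7 FPKM in the other libraries, almost all of it SERPINE2 and FST, with FOXL2 listed at 0. The blood and immune markers, 4 of 6 with a locus, summed to 2.27 to 13.2 FPKM and 7.18 to 25.3 FPKM, with PTPRC at or under 0.0152 FPKM. The part of other cells in the members' levels was not tested. In these bulk samples, fewer cells of a type and less RNA per cell cannot be told apart.

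Levels of the members spanned a wide range. Averaged over the 6 libraries, 12 members had at least 10 FPKM, 15 had 1 to 10 FPKM and 8 had less than 1 FPKM. The 6 with the highest means, SOAT1, FDPS, NSDHL, EBP, IDI1 and MSMO1, held 62.1% of the summed mean of all 35. The filter of the test, a group mean of 1 FPKM or more in either group, was passed by 29 members. Of these, 23 passed in both groups and 6 through the uninjected libraries alone, among them CHURC1-FNTB, PCYOX1, LSS, CYP51A1 and CYP2R1. The other 6 included TM7SF2, SOAT2, CEL, CYP24A1 and ENSSSCG00000028960.

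**Figure D1:**
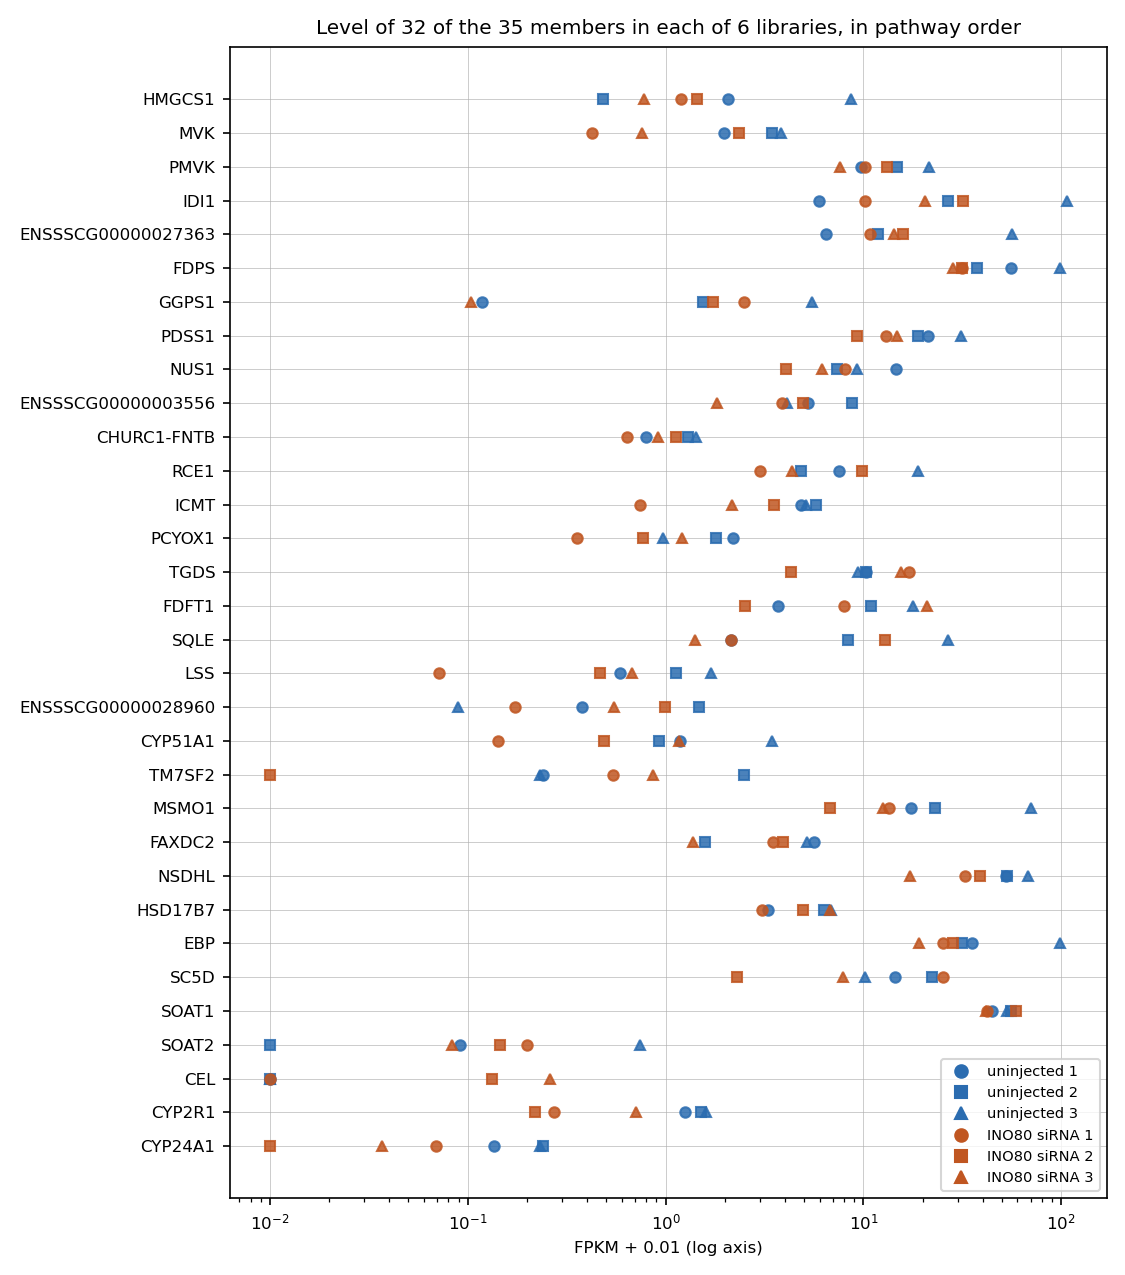
Level of 32 of the 35 members in each library, as FPKM + 0.01 on a log axis, in pathway order from top to bottom; colour gives the group and marker shape the library number. SOAT1 keeps within 41.5 to 59.1 FPKM, while IDI1 runs from 5.98 to 107 FPKM and GGPS1 from 0.0946 to 5.47 FPKM.

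No member passed the test. The fit was limma on log2(FPKM + 1) over 64076 loci, and with Benjamini-Hochberg adjustment 0 of 29 members were called at 0.05, beside a background of 0.0% of all loci tested. Adjusted p-values of the members lay between 0.840 and 0.980. At an unadjusted p under 0.05 the same fit held 0 members lower and 0 higher, where 1.21% of annotated loci were lower and 0.296% higher. Fitted to the 8778 annotated loci alone, limma again called 0 members after adjustment (background 0.0114%, 1 locus). The unadjusted count in that fit was 5 members lower, against 4.36% of loci, and 0 higher, against 0.946%. MSMO1, ICMT, NSDHL and MVK were among those 5, each with an adjusted p of 0.910.

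The direction was shared by most members all the same. The difference, libraries labelled INO80 siRNA minus uninjected, was below 0 for 28 of the 29 members tested and for 67.7% of annotated loci. With libraries scaled to one median of annotated loci it was below 0 for 23 of 28, beside 48.0% of annotated loci. Without uninjected library 3 it was below 0 for 23 of 29, beside 65.5% of annotated loci. The median log2 difference was -0.67 over the members, -0.22 over annotated loci and 0.23 over all loci. Marker lists of the embryo's own cell types stood as far below 0, with medians of -0.74 over 7 tested trophectoderm genes (6 below 0), -0.74 over 5 epiblast genes (3 below 0) and -0.62 over 2 primitive endoderm genes; limma called none of these after adjustment, and 1 of them, TDGF1, had an unadjusted p under 0.05. Their part in the members' levels was not tested. By term it was -0.65 over the 16 terpenoid members and -0.79 over the 13 steroid members. Scaling moved the median of annotated loci to 0.02 with median scaling and to -0.48 with quantile normalization, and the members then stood at -0.44 and -0.96, so that the gap between them, -0.45 as deposited, came to -0.46 and -0.49. Leaving out uninjected library 3 brought the members' median to -0.41 and the gap to -0.19. All 29 intervals included 0, all 29 reached -1 and 10 reached 1.

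**Figure D2:**
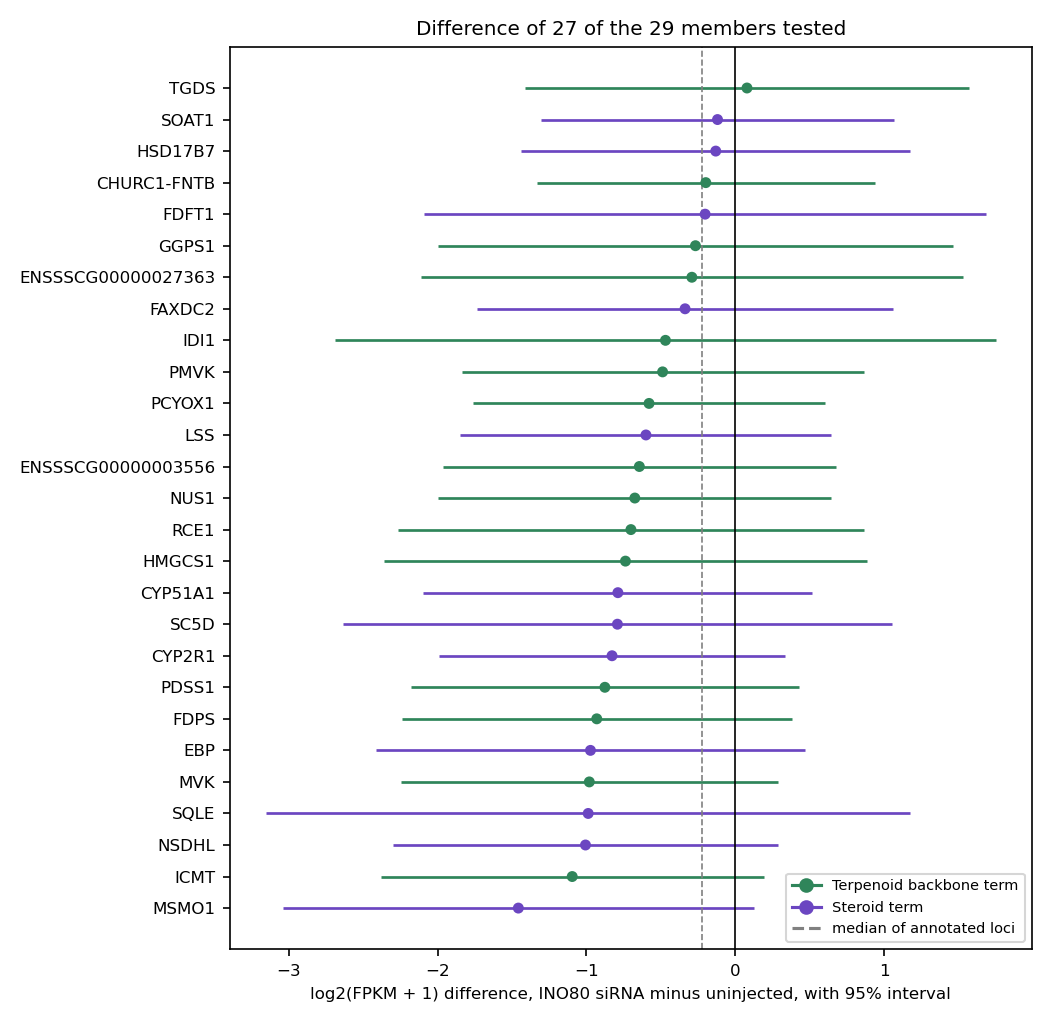
Difference in log2(FPKM + 1), libraries labelled INO80 siRNA minus uninjected, for 27 of the 29 members tested, with 95% limma intervals; colour gives the KEGG term and the dashed line the median of annotated loci, -0.22. Points run from -1.46 for MSMO1 to 0.08 for TGDS, and every interval shown includes 0; with median scaling the points of SOAT1, HSD17B7, FDFT1 and ENSSSCG00000027363 lie above 0.

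Groups did not overlap for 8 of the 29 members tested, each with all 3 libraries labelled INO80 siRNA below all 3 uninjected ones; 8.94% of annotated loci did the same. None of the 29 had them all above, against 1.77% of annotated loci. FDPS, PDSS1, ICMT, MSMO1, NSDHL, EBP and CYP2R1 were among the 8, of which 6 had passed the filter in both groups. With CYP24A1, under the filter, this makes 9 of all 35, where 5.73% of annotated loci without the filter did the same. These counts rest on the locus that carries the annotated transcript. Assembled loci of the same name overlapped the exons of 12 members on the same strand, and for 8 of these members had the higher mean FPKM. When the FPKM of these loci was added, an alternative chosen after seeing the data, the count was 5, against 8.91% of annotated loci. The members' median log2 difference was then -0.49 and its gap to annotated loci -0.27. With median scaling the count was 3, against 3.68% of annotated loci. It was 13 both without uninjected library 1 and without library 2 labelled INO80 siRNA, where fewer libraries made separation easier and the shares of annotated loci were 16.1% and 18.7%.

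Synthesis of mevalonate starts with HMGCS1, the cytosolic HMG-CoA synthase (chr16:29432810-29454088 in the table's coordinates, for which the sources used here name no pig build). It had 2.06, 0.472 and 8.68 FPKM without injection (libraries 1 to 3) and 1.19, 1.43 and 0.766 FPKM under the INO80 siRNA label. Uninjected library 3 stood several times above every other library, and the remaining 5 overlapped. The log2 difference was -0.74 (SE 0.72).

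MVK and PMVK phosphorylate mevalonate in turn. MVK (chr14:43850912-43874056) had 1.96, 3.45 and 3.82 FPKM without injection and 0.414, 2.34 and 0.750 FPKM under the siRNA label, a log2 difference of -0.98 (SE 0.56, 95% interval -2.25 to 0.29). Its second library labelled INO80 siRNA lay above uninjected library 1, so the groups overlapped. PMVK (chr4:103634253-103646149) had 9.70, 14.8 and 21.3 against 10.2, 13.1 and 7.64 FPKM, with a log2 difference of -0.49 (SE 0.60). Its uninjected library 1 was among the lower values.

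IDI1, the isomerase that makes dimethylallyl diphosphate, showed the widest contrast between uninjected libraries among the abundant members. It had 5.98, 26.6 and 107 FPKM there, and 10.2, 31.7 and 20.4 FPKM under the INO80 siRNA label (log2 difference -0.47, SE 0.98). Without uninjected library 3 its difference was 0.52, in the opposite direction. A second locus on the same chromosome, ENSSSCG00000027363, carries the same isomerase activity as its Gene Ontology term. It had 6.49, 11.8 and 56.3 against 10.8, 15.8 and 14.2 FPKM, again with uninjected library 3 on top (log2 difference -0.29, SE 0.81, and 0.56 without that library). The pair lies at chr10:75367603-75370787 on the plus strand and chr10:75598419-75601440 on the minus strand, and if their sequences are near-identical reads could be split between them, so both levels are uncertain.

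Chain elongation begins with FDPS, farnesyl diphosphate synthase (chr4:103291793-103304941). It had 55.9, 37.3 and 98.1 FPKM without injection and 31.6, 31.6 and 28.4 FPKM under the INO80 siRNA label. The latter were close together and below every uninjected value, although uninjected library 2 was only slightly higher. Means came to 63.8 ± 31.2 and 30.5 ± 1.87 FPKM (SD, n = 3 each), and the log2 difference was -0.93 (SE 0.58, 95% interval -2.24 to 0.38). GGPS1, which adds 1 more isoprene unit (chr14:59978292-60004601), had 0.108, 1.53 and 5.47 against 2.49, 1.73 and 0.0946 FPKM. Each group of GGPS1 held a library near 0.1 FPKM, and its log2 difference of -0.27 (SE 0.76) became 0.38 without uninjected library 3 and 0.23 without the library labelled INO80 siRNA 3.

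PDSS1 makes the polyprenyl tail of ubiquinone (chr10:54434824-54488079). Its locus had 21.1, 18.8 and 31.1 FPKM without injection and 13.1, 9.28 and 14.8 FPKM under the siRNA label, with no overlap (log2 difference -0.88, SE 0.58). An overlapping assembled locus of the same name reached 61.1 FPKM in library 3 and 25.6 FPKM in library 1 labelled INO80 siRNA; with it added the groups overlapped and the difference was 0.47. NUS1 and ENSSSCG00000003556, which the table describes as a dehydrodolichyl diphosphate synthase, serve dolichol synthesis. NUS1 ranged from 4.07 to 14.6 FPKM and ENSSSCG00000003556 from 1.81 to 8.72 FPKM, with overlapping groups and log2 differences of -0.67 and -0.64. With overlapping loci of the same name added, NUS1 ranged from 12.6 to 238.6 FPKM (log2 difference -0.38). ENSSSCG00000003556 then had separate groups, lower under the siRNA label (log2 difference -0.66).

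Protein prenylation is represented by 4 members. ICMT, which methylates the prenylated cysteine (chr6:62023800-62033038), had 4.80, 5.78 and 5.14 FPKM without injection and 0.730, 3.53 and 2.16 FPKM under the siRNA label. Its uninjected libraries differed little from each other, with means of 5.24 ± 0.494 against 2.14 ± 1.40 FPKM (SD, n = 3 each), and all 3 other values lay lower (log2 difference -1.10, SE 0.57, 95% interval -2.38 to 0.19). RCE1, the protease that trims prenylated proteins, ranged from 2.98 to 18.8 FPKM. PCYOX1, which breaks down prenylcysteine, ranged from 0.347 to 2.19 FPKM. CHURC1-FNTB, a readthrough entry that includes the farnesyltransferase beta subunit, ranged from 0.631 to 1.42 FPKM. The groups overlapped for these 3, with log2 differences of -0.70, -0.58 and -0.20.

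TGDS is annotated as a dTDP-glucose dehydratase and holds the terpenoid term, though the table gives it no step of the route above. It was the 1 tested member with a difference above 0, at 0.08 (SE 0.66), from 10.3, 10.3 and 9.43 FPKM without injection and 17, 4.29 and 15.5 FPKM under the siRNA label. Its sign was negative with quantile normalization and without library 1 or library 3 labelled INO80 siRNA. An overlapping locus named TGDS had the higher mean, 72.35 against 11.14 FPKM. Summed with it, TGDS stood at 10.98, 69.05 and 62.81 against 51.31, 119.1 and 187.7 FPKM, with overlapping groups and a log2 difference of 1.49.

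FDFT1, squalene synthase (chr14:16164798-16199407), commits farnesyl diphosphate to sterols. It had 3.69, 11 and 17.7 FPKM without injection and 8.01, 2.51 and 20.9 FPKM under the siRNA label, with no order between groups (log2 difference -0.20, SE 0.84). SQLE, squalene epoxidase (chr4:15248863-15280145), had 2.13, 8.35 and 26.7 against 2.13, 12.8 and 1.40 FPKM. Both groups of SQLE held a library near 2 FPKM and one above 8 FPKM, and the log2 difference was -0.99 with an SE of 0.96. An overlapping locus named SQLE had the higher mean, with 17.2, 41.5 and 8.54 against 25.9, 29 and 3.80 FPKM.

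LSS, which cyclises squalene epoxide to lanosterol (chr13:218517420-218540493), was low, with 0.581, 1.11 and 1.69 FPKM without injection and 0.0618, 0.456 and 0.669 FPKM under the siRNA label. Its log2 difference of -0.60 (SE 0.55) is on the log2(FPKM + 1) scale, which understates changes of genes this low. ENSSSCG00000028960, a nearby locus with the steroid term (chr13:218430206-218440700), ranged from 0.0796 to 1.47 FPKM and was not tested.

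The steps from lanosterol to cholesterol held 4 of the 8 separated members. CYP51A1, the lanosterol demethylase (chr9:78792885-78814967), had 1.18, 0.914 and 3.45 FPKM without injection and 0.133, 0.476 and 1.16 FPKM under the siRNA label. Only the last value reached into the uninjected range (log2 difference -0.79, SE 0.58). TM7SF2, a sterol reductase acting after it, ranged from 0 to 2.49 FPKM and was not tested.

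MSMO1 oxidises the sterol methyl groups (chr8:45557528-45618352), and its difference was the lowest of the 29 tested. It had 17.4, 23 and 70.5 FPKM without injection and 13.4, 6.78 and 12.6 FPKM under the siRNA label, or 37.0 ± 29.1 against 10.9 ± 3.63 FPKM (SD, n = 3 each). The log2 difference was -1.46 (SE 0.70, 95% interval -3.04 to 0.13, limma adjusted p = 0.840). The overlapping locus of the same name had 13.5, 27 and 3.81 against 12.5, 28.9 and 73.6 FPKM, the reverse order for library 3 of each group. Summed with it, MSMO1 stood at 31, 50.1 and 74.3 against 25.9, 35.7 and 86.2 FPKM, with a log2 difference of -0.17.

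NSDHL, the dehydrogenase that follows MSMO1 (chrX:141376699-141395482), was among the most even of the separated members. It had 52.3, 52.9 and 68.2 FPKM without injection and 32.8, 38.8 and 17.2 FPKM under the siRNA label. Means of 57.8 ± 9.02 and 29.6 ± 11.2 FPKM (SD, n = 3 each) gave a log2 difference of -1.01 (SE 0.57, 95% interval -2.30 to 0.29). It has no overlapping locus of its own name, so its separation does not depend on that choice. HSD17B7, the ketoreductase of the same step (chr4:95571648-95594413), had 3.30, 6.31 and 6.83 against 3.06, 4.93 and 6.79 FPKM, nearly the same values in both groups (log2 difference -0.13, SE 0.58, 95% interval -1.44 to 1.18).

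EBP shifts a double bond in the sterol ring (chrX:47619464-47627444). It had 35.3, 31.4 and 98.7 FPKM without injection and 25.1, 28.4 and 19.1 FPKM under the siRNA label, a narrow separation apart from uninjected library 3 (log2 difference -0.97, SE 0.64). With its overlapping locus added, library 1 labelled INO80 siRNA had 47.3 FPKM and the groups overlapped (log2 difference -0.64). SC5D, the desaturase after it (chr9:53564367-53580784), varied widely within the siRNA label, with 14.5, 22.1 and 10.2 against 25.2, 2.29 and 7.92 FPKM. Its library 1 labelled INO80 siRNA was the highest of the 6 and library 2 the lowest (log2 difference -0.79, SE 0.82). FAXDC2, which holds the steroid term, ranged from 1.37 to 5.59 FPKM with overlapping groups.

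SOAT1 esterifies cholesterol for storage (chr9:132894169-132956327) and was the highest and steadiest member. It had 44.4, 55.8 and 53.4 FPKM without injection and 42.0, 59.1 and 41.5 FPKM under the siRNA label. The highest value was 1.42 times the lowest, against 3.96 times for NSDHL and 17.9 times for IDI1. Its log2 difference was -0.12 (SE 0.52, 95% interval -1.30 to 1.06), and 0.19 with median scaling. SOAT2 and CEL, a second acyltransferase and a bile-salt-activated esterase, stayed at or under 0.733 and 0.250 FPKM. CYP2R1, the vitamin D hydroxylase (chr2:47655679-47695835), had 1.24, 1.5 and 1.59 against 0.264, 0.210 and 0.697 FPKM, separate but low (log2 difference -0.83, SE 0.51). CYP24A1, which inactivates vitamin D, had 0.126, 0.229 and 0.222 against 0.0591, 0 and 0.0268 FPKM, too low for the test.

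Summed by step, the members' FPKM showed where the libraries parted. The 8 members from lanosterol to cholesterol summed to 126, 142 and 259.8 FPKM (176 ± 73.0, SD, n = 3) in uninjected libraries and 100.3, 82.6 and 66.2 FPKM (83.0 ± 17.1) under the siRNA label. Chain elongation summed to 97.0, 73.7 and 148 against 59.1, 51.6 and 51.2 FPKM. Neither of these sums overlapped between groups, but both did once overlapping loci of the same name were added: uninjected library 1 then had 143 and 104 FPKM, below the 148 FPKM of library 3 and the 203 FPKM of library 2 labelled INO80 siRNA. The mevalonate steps overlapped either way, with 26.9, 59.4 and 205 against 35.1, 65.8 and 44.4 FPKM. Esterification and vitamin D steps, carried by SOAT1, were alike in range at 45.9 to 57.5 and 42.5 to 59.5 FPKM.

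**Figure D3:**
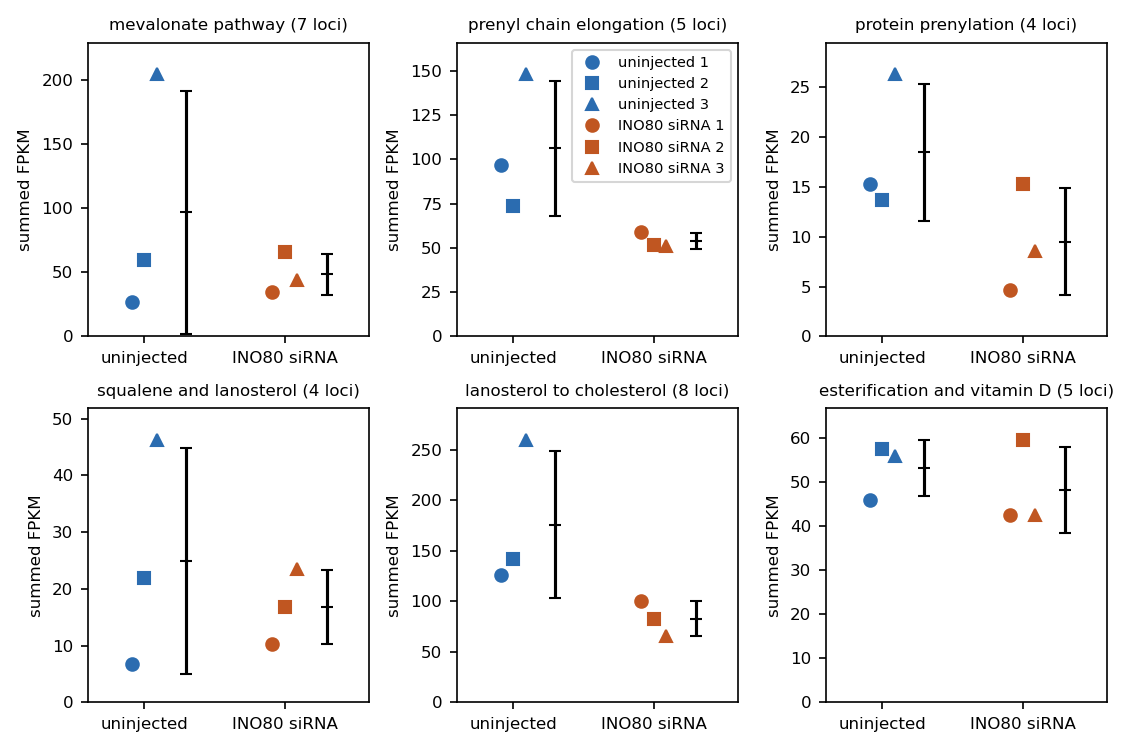
Summed FPKM of the members of 6 pathway steps in each library, with the mean and SD of 3 libraries beside the points; titles give the number of loci summed. Uninjected library 3 lies on top in 5 of the 6 panels, and groups are separate for chain elongation and for lanosterol to cholesterol, though not with overlapping loci of the same name added.

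Uninjected library 3 was the highest of the 6 for 19 of the 29 tested members and the lowest for none, while it was highest for 22.5% of annotated loci. It led 6 of the 7 mevalonate members and 5 of the 8 from lanosterol to cholesterol. Over all 35 members it held 756 FPKM, against 334 and 380.5 FPKM in the other uninjected libraries and 253 to 299.7 FPKM under the INO80 siRNA label. As a percentage of the FPKM of annotated loci this was 0.212 against 0.0956 and 0.131 in the uninjected and 0.0778 to 0.106 in the others. The same library had the highest share of signal in annotated loci, 74.6% against 50.3% to 71.6% in the other 5, and the highest sum over the trophectoderm markers, 2907 FPKM against 754 to 1865 FPKM. The part of these differences in the members' levels was not tested. The lowest value of a member fell in library 1, 2 or 3 labelled INO80 siRNA for 9, 7 and 10 of the 29, where the shares of annotated loci were 32.8%, 22.8% and 12.2%.

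**Figure D4:**
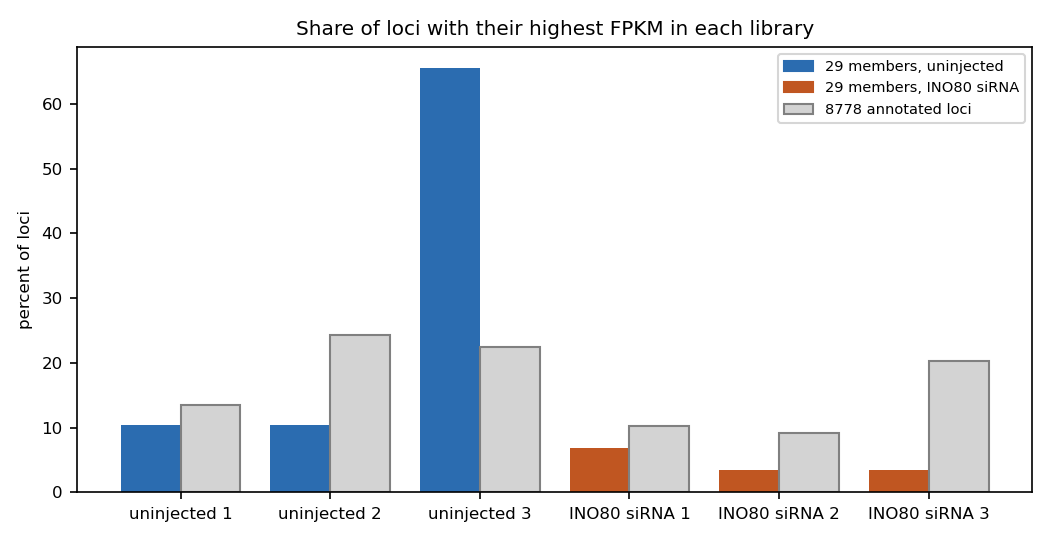
Percentage of loci whose highest FPKM fell in each library, for the 29 tested members (coloured by group) and for the 8778 annotated loci of the fit (grey). Uninjected library 3 was highest for 19 of the 29 members, against 22.5% of annotated loci.

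At transcript level, the members had 89 transcripts, of which 60 passed the filter. None of the 60 was called by limma after adjustment over 104522 transcripts (background 0.00574%, 6 transcripts), with a smallest adjusted p of 0.827. In that fit 5 had an unadjusted p under 0.05, all lower in the libraries labelled INO80 siRNA, beside 4.55% of all transcripts tested in either direction. That share includes transcripts outside annotated genes, and no share by direction is given here, so the shared direction of the 5 has no background beside it. Those named here were chosen after their values were seen, and FPKM split between overlapping forms is an estimate. HMGCS1 was assembled as a pair of forms, each of 11 exons. The known form ENSSSCT00000018376 (29433805 to 29454088) had 2.16, 0.495 and 9.10 FPKM without injection and 0.0239, 0.113 and 0 FPKM under the siRNA label. The assembled form (29432810 to 29453864) was at 0 in each library without injection and had 1.26, 1.43 and 0.830 FPKM under the siRNA label. All the HMGCS1 signal of an uninjected library thus sat in one form and nearly all of the other libraries' signal in the second, with log2 differences of -1.80 (SE 0.77) and 1.11 (SE 0.56), neither past the adjusted threshold.

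For FDPS, the known form had 8.95, 12.1 and 7.51 FPKM against 0, 1.48 and 3.23 FPKM (log2 difference -2.24, SE 0.76). The most abundant FDPS form had 40.2, 32.2 and 73.9 against 30.9, 40.2 and 21.7 FPKM, with overlapping groups. Thus the groups were separate in the minor, known form of FDPS and not in its main form. For NSDHL the known form, which carried most of the signal, had 64.1, 65.7 and 73.7 against 41.8, 48.9 and 21.7 FPKM, as separate as the locus. For EBP the main known form overlapped, with 34.8, 25.5 and 105 against 27.8, 31 and 21.1 FPKM. Of its minor assembled forms, MSTRG.87993.4 was separate, with 5.84, 7.10 and 4.28 against 0, 1.72 and 1.14 FPKM. MSTRG.87993.5 was separate too, with 1.37, 2.71 and 1.29 against 0.119, 0.555 and 0.726 FPKM, while MSTRG.87993.3 overlapped. The share of all transcripts with separate groups is not given here.

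Genes around these pathways were taken from lists chosen by function, and limma called none of them after adjustment in either direction; NPC2 alone had an unadjusted p under 0.05. Of 8 genes of sterol sensing, 4 had a locus and all 4 were tested, with a median log2 difference of -0.34 and uninjected library 3 highest for each. INSIG1, which retains the SREBP escort in the endoplasmic reticulum, had 0.138, 0.250 and 3.84 against 0.513, 0.608 and 0.287 FPKM. Like HMGCS1, it stood high in uninjected library 3 alone. The SREBP genes SREBF1 and SREBF2 had no matching annotated locus here. SCAP, that escort, and MBTPS1, the protease that cleaves SREBP, had log2 differences of -0.07 and -0.30. Among 7 uptake genes, 3 were tested, one of them MYLIP, a ubiquitin ligase, with a difference of 0.17.

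Of 13 transport and esterification genes, 8 were tested, with a median log2 difference of -0.45. NPC2, which moves cholesterol out of lysosomes, had 544, 312 and 1033 against 121, 388 and 141 FPKM, so its library 2 labelled INO80 siRNA overlapped (log2 difference -1.57, SE 0.64, limma adjusted p = 0.840). Its membrane partner NPC1 and the transfer protein STARD3 had differences of -0.82 and -0.96. Efflux genes had a median of -0.13 over 4 tested. APOA1, the main protein of high-density lipoprotein, had 1.27, 6.13 and 7.08 FPKM against 1.32, 32.7 and 75.4 FPKM, so library 1 labelled INO80 siRNA lay within the uninjected range (log2 difference 1.84, SE 1.21). ABCA1, the cholesterol exporter, and NR1H2, a liver X receptor, had -0.67 and -0.44.

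Acetyl-CoA supply was measured by 5 genes, all tested, with a median of -0.40. ACAT2, the cytosolic thiolase that starts the mevalonate pathway, had 25.1, 34.4 and 57.7 FPKM without injection and 15.5, 16.4 and 12.7 FPKM under the siRNA label. Those groups did not overlap (log2 difference -1.26, SE 0.59), and the same held for ACAT1, the mitochondrial thiolase, at -0.65, while ACLY, which makes cytosolic acetyl-CoA, overlapped at -0.40. Of annotated loci, 8.94% were separate and lower. These genes were named for the smallest p-values of their list. Overlapping loci of the same name were added for members only, not for list genes. Isoprenoid users outside both terms had a median of -0.59 over 12 tested, all 12 below 0, where 67.7% of annotated loci were below 0. COQ5, COQ6 and COQ2, enzymes of ubiquinone synthesis like PDSS1, had the smallest p-values of this list. They were each separate between groups, where 8.94% of annotated loci were separate and lower. Having been picked by their p-values, they cannot be judged against that share. COQ3, also a tested enzyme of ubiquinone synthesis on this list, overlapped between groups, with a log2 difference of -0.09 (SE 0.72). COQ5 had 16.5, 31.5 and 22 against 8.56, 10.6 and 8.19 FPKM, and COQ6 had 29.8, 35.3 and 31.2 against 9.49, 16.4 and 16.5 FPKM. The log2 differences of COQ5, COQ6 and COQ2 were -1.23 (SE 0.58), -1.16 (SE 0.57) and -1.14 (SE 0.62). Steroid hormone synthesis had 1 tested gene of 10, FDXR, an electron donor of mitochondrial cytochromes, at -0.77 (SE 0.73).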

How the data were processed

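FPKM per locus and per transcript are the authors' deposited values; StringTie, HISAT2, fastp and edgeR are among the tools listed, without versions, per the submitters' processing notes. Those notes list the human build GRCh38.p10 although the gene IDs are from pig Ensembl, so the pig build of the coordinates, like the strand setting, is not known from the sources used here. The exonic length and number of exons of a transcript (another kind of value, with no scaling) come from the deposited transcript table, per the file headers. FPKM is relative to the mapped fragments of each library, so a library with more signal outside annotated loci has lower values within them.

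Columns labelled INO80 siRNA were tied to that group. The water sham columns were used in no step, because the titles they match belong to samples with the INO80-siRNA characteristic; the coverage columns were left out as well, 15 columns in all. Control siRNA samples had no column under their own name. Members were found from the KEGG and transcript class annotations, which involve no FPKM value. Of 6 member names that were Ensembl IDs, 3 were matched to a symbol. Members and lists were chosen with earlier results of these data known; 80 of 105 list genes had a locus.

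Log2(FPKM + 1) was fitted with limma 3.58.1 in R 4.3.3 (trend, robust, two-sided) on loci with a group mean of 1 FPKM or more in either group, adjusted by Benjamini-Hochberg over all loci. The code was run on simulated data, with changes larger than any member's difference, planted in loci with higher levels than the members. That run does not tell whether changes of the members' size would be found. Tables and figures used Python 3.11.15. Counts of loci whose groups do not overlap are descriptions. Counts cover all members, but some members and list genes are not reported here singly, in text or figures; for the others, values of each library are given for the enzymes of the main route, the 6 smallest p-values, the 5 highest means and the members without overlap, and up to 3 genes per list by smallest p. Replicate numbers shared between groups were not treated as pairs. Searches for promoter and protein motifs were planned and not run, since no sequence was used here.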

Additional observations from a re-analysis of the deposited data

How the results depend on the processing

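limma called 0 members in each of 15 other settings, with smallest adjusted p-values of 0.633 to 0.956. Depth is not known, and 3 libraries a group leave intervals that reach -1 for each tested member. The number of members lower at an unadjusted p under 0.05 was 0 as reported, 1 without the filter, 5 with annotated loci only, 3 with quantile normalization and 0 to 1 with 1 library left out; the shares of annotated loci were 1.21%, 0.683%, 4.36%, 3.62% and 0.618% to 1.97%. The number with the groups separate and lower, 8 as reported, was 3 with median scaling and 5 with overlapping loci added. It was 10 to 13 with 1 library left out, where separation is easier to reach. The shares of annotated loci were 8.94%, 3.68%, 8.91% and 12.7% to 20.3%. Separate and higher it was 0 to 1, where 1.77% of annotated loci were so as reported. The members' median ran from -0.86 to -0.41 with 1 library left out and was -0.89 with a pseudocount of 0.1 FPKM.

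Single members changed sign. With median scaling, ENSSSCG00000027363 was at 0.0057, FDFT1 at 0.069, HSD17B7 at 0.13 and SOAT1 at 0.19. With 1 library left out, IDI1 ran from -1.46 to 0.52, ENSSSCG00000027363 from -0.91 to 0.56, GGPS1 from -0.89 to 0.38, FDFT1 from -0.86 to 0.46, HSD17B7 from -0.40 to 0.12 and TGDS from -0.24 to 0.65. Values past 0 came without uninjected library 3 for IDI1, ENSSSCG00000027363, GGPS1, FDFT1 (0.24) and HSD17B7 (0.03), and otherwise without 1 library labelled INO80 siRNA: library 3 for GGPS1 (0.23) and TGDS (-0.17), library 2 for FDFT1, library 1 for HSD17B7 and TGDS. TGDS was at -0.21 with quantile normalization. With overlapping loci added, which puts other reads into these values, PDSS1 was at 0.47, CYP51A1 at 0.42 and FAXDC2 at 0.45. For the other settings the cause was not tested.

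Same-numbered libraries did not deviate together (r = 0.063, -0.207 and -0.124), where pairs of other numbers had r from -0.137 to 0.241. No pairing by number was seen, though deviations from the mean of 3 libraries cannot exclude one. With a replicate block, the members' median stayed at -0.67, 0 members were called, the smallest adjusted p was 0.942 and 0 had an unadjusted p under 0.05.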
